A study of Mus musculus with 12 samples.

Results

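Ribosomal protein processed pseudogenes are the rows of the P3 expression table that carry a pseudogene biotype and a symbol beginning with Rpl or Rps and containing -ps. Of 189 such rows, 57 were chosen by their level, a mean of at least 1 FPKM (reads scaled to gene length and library depth) over the 6 libraries, and 132 lay below it. The table holds 31091 genes in all. The RNA came from granule cell progenitors, which divide in the outer layer of the young cerebellum before they become granule neurons, of mice with the genotype Znhit3 conditional knockout (cKO) and of control mice with the genotype WT, at postnatal day 3 (P3), with 3 libraries in each group. The series has 12 samples, and those of postnatal day 6 were not analysed here. Labels and protocols name no Cre driver, floxed allele, sex or pooling of animals. Nothing states that replicates came from separate animals, so p-values measure only how these libraries vary, which may be technical.

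A processed pseudogene arises when the mRNA of a gene is copied back into DNA and inserted at another place in the genome. It lacks the introns and the promoter of its parent, and over time it gathers substitutions. Ribosomal protein genes, which are short and strongly transcribed, have left more such copies in mammalian genomes than most gene families. Because a recent copy is nearly identical to the mRNA of its parent, a short sequencing read from one can match the other, and the reads counted for a pseudogene may come from its own transcript or from the parent. The symbol before -ps names the parent, so Rpsa-ps10 is a copy of Rpsa, which encodes a protein of the small ribosomal subunit that is also known as the laminin receptor.

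The 57 pseudogenes belonged to 33 parent genes. Of these parents, 17 had 1 copy above 1 FPKM, 10 had 2, 5 had 3 and Rpl17 had 5. There were 31 copies of large subunit (Rpl) genes and 26 of small subunit (Rps) genes, and the table gives 53 of the 57 as processed pseudogenes and 4 as transcribed processed pseudogenes. They lay on 19 chromosomes, with 7 on X, 2 on 18 and 0 on 11, which carries Znhit3. The gene length in the table ran between 151 and 1210 bases, with a median of 483. Just inside the threshold were Rpl17-ps8 with a mean of 1.01 FPKM, Rps6-ps1 with 1.07 FPKM and Rpl17-ps9 with 1.08 FPKM, and just outside it were Rpl30-ps1 with 0.924 FPKM, Rpl27-ps3 with 0.906 FPKM and Rpl10-ps6 with 0.898 FPKM. Rpl17-ps8 and Rpl17-ps9 passed through the control libraries, since their cKO means were 0.944 and 0.946 FPKM against control means of 1.08 and 1.21 FPKM. Rpl10-ps3, Rpl9-ps6 and Rps18-ps4 matched the symbol rule but carry another biotype and were left out.

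All 57 pseudogenes have a transcript in the GENCODE M21 annotation of GRCm38. Aligned to a transcript of the parent, they were between 87.5% and 100% identical, with a median of 99.4%, and 53 aligned without a gap. Over the aligned bases 11 were identical to the parent, 45 were at least 99% identical, and 1 lay below 95%, namely Rpl36a-ps3 with 40 substitutions, whose exact stretches were shared with Rpl36al and not with Rpl36a. The reading frame of the parent ran through 53 copies without a stop or shift. In Rps18-ps3, Rpsa-ps7, Rpsa-ps2 and Rps15a-ps3 it met a stop codon, and in Rpsa-ps2 also a shift of frame. In 27 copies no substitution changed an amino acid. The libraries were read 150 bases from each end, and 52 of the 57 pseudogenes held at least one stretch of 150 bases found exactly in the transcript of another annotated gene. For 42 of them most of these shared stretches were in the parent itself, and in 27 copies most of all stretches were. The 5 copies with no shared stretch were Rpl28-ps3, Rpl39-ps, Rps19-ps3, Rps10-ps1 and Rps15a-ps3.

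The sequences below show how little separates a copy from its parent, for the called pseudogenes with the smallest p-values (Rpsa-ps10 is also the most abundant one). Each is the stretch of 150 bases within the parent's coding sequence that holds the most differences, as long as a single read, from GENCODE M21 transcripts on GRCm38, 5′ to 3′ on the strand of the gene. Capitals mark the bases that differ between the pair. 
Rpsa-ps10 (bases 196 to 345): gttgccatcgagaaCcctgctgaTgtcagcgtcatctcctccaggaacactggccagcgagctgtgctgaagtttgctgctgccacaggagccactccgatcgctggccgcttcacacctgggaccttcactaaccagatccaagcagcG
Rpsa, aligned to Rpsa-ps10 (coding bases 196 to 345): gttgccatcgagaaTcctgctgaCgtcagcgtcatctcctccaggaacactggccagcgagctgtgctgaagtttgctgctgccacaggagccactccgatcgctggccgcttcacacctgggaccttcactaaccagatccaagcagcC
Rps18-ps5 (bases 109 to 258): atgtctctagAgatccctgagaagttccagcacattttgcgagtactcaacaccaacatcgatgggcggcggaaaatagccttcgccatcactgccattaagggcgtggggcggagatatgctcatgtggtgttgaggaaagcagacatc
Rps18, aligned to Rps18-ps5 (coding bases 1 to 150): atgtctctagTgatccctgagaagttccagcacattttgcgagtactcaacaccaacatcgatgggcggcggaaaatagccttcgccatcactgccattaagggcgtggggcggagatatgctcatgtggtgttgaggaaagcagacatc
Rpsa-ps7 (bases 148 to 297): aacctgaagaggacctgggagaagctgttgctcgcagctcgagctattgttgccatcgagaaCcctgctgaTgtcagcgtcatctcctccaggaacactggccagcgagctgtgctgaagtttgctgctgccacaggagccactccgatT
Rpsa, aligned to Rpsa-ps7 (coding bases 148 to 297): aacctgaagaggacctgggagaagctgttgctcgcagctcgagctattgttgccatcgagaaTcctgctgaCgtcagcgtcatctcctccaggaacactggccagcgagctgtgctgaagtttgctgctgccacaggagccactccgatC

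Rpsa-ps10 (chromosome 3, minus strand, 885 bases) differs from Rpsa (chromosome 9) by 6 substitutions in all, of which T210C, C219T and C345G lie in the stretch above. Each token gives the base of the parent, the position counted from 1 at the 5′ end of the pseudogene, and the base of the pseudogene. Rpsa-ps7 (chromosome 17, minus strand, 885 bases) has 10 substitutions, carries T210C and C219T as well, and has C297T in its own stretch. Rps18-ps5 (chromosome 13, plus strand, 607 bases) has 4 substitutions against Rps18 (chromosome 17) over its 540 aligned bases, and T119A is the one in its stretch. Between Rpsa-ps10 and Rpsa, 248 of the 736 stretches of 150 bases in the pseudogene are shared exactly, and Rpsa-ps10 shares 195 with Rpsa-ps2, 122 with Rpsa-ps7 and 66 with Rpsa-ps9. Of the 458 stretches in Rps18-ps5, 39 are in Rps18 and 109 in Rps18-ps3. Counting every annotated transcript, 45.5% of the stretches in Rpsa-ps10, 28.8% in Rps18-ps5 and 21.6% in Rpsa-ps7 were found elsewhere. The rest were found exactly in no transcript of another annotated gene, but they can still be nearly identical to the parent. Sequence outside annotated transcripts was not searched.

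The labels were first checked against Znhit3, the targeted gene, whose protein helps to assemble the particles that guide methylation of ribosomal RNA. It measured 4.03, 4.01 and 4.57 FPKM in the cKO libraries and 9.15, 8.62 and 8.58 FPKM in the control libraries. Differences throughout are cKO minus control in units of log2(FPKM + 1), and that of Znhit3 was -0.91 ± 0.06 (SE, limma adjusted p = 0.00024), with p = 0.1 in an exact two-sided permutation test, where 3 against 3 libraries allow no smaller value. Counted reads were between 29119803 and 40281292 per cKO library and between 32278245 and 52961445 per control library. Granule cell progenitor markers were present, with Atoh1 at a mean of 35.0 FPKM in cKO and 37.5 FPKM in control. Of 15 such markers 0 were called higher and 3 lower, and their summed level was 1089 to 1133 FPKM in cKO libraries and 1217 to 1315 FPKM in control libraries. Of 8 tested markers of differentiating granule neurons 0 were called higher and 3 lower, and their sum was 444 to 473 FPKM in cKO and 567 to 594 FPKM in control. Markers of 9 other groups of cells were also above 0, and of 56 tested 41 were called higher and 6 lower in cKO. The endothelial sum was 240.1 to 256 FPKM in cKO and 135 to 148 FPKM in control, and the choroid plexus sum 649 to 727 FPKM in cKO and 1359.55 to 1447 FPKM in control. Xist averaged 24.04 ± 0.514 FPKM in cKO and 53.7 ± 3.15 FPKM in control (SD, n = 3 each), and the Y-linked gene Ddx3y 12.4 ± 1.65 FPKM in cKO and 5.28 ± 0.359 FPKM in control. The part of cell composition and of sex in the results below was not tested. In these bulk libraries fewer cells of a type and less RNA per cell cannot be told apart.

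Most of the pseudogenes were not called, and a few single copies were called in both directions. Of the 57, 3 were called higher in cKO (Rps18-ps5, Rps19-ps6 and Rpl35a-ps2) and 4 lower (Rpsa-ps10, Rpsa-ps7, Rps26-ps1 and Rps24-ps3), at a Benjamini-Hochberg adjusted p under 0.05 from limma over all rows tested. That is 12.3% of the pseudogenes, against 19.1% of all 13538 rows tested, of which 13.4% were called higher and 5.74% lower. Among 417 other pseudogenes with a mean of at least 1 FPKM, 15 were called higher and 25 lower, or 9.59%. The median difference was -0.08 for the ribosomal protein pseudogenes, -0.03 for the other pseudogenes and 0.03 for all rows. Their standard errors were wider than usual, with a median of 0.14 against 0.06 for all rows. Of the 50 copies that were not called, 49 had a 95% interval that lay between -1 and 1, and the median half-width of these intervals was 0.33, with its own width for each copy. The 1 added to FPKM shrinks the differences of low copies, and 13 of the 57 had a mean under 2 FPKM. For such copies an interval inside these bounds does not exclude a large relative change. In 12 of the 57 the cKO and control values did not overlap, 5 with all cKO values above and 7 with all below, which compares with 40.5% of all rows tested.

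**Figure D1:**
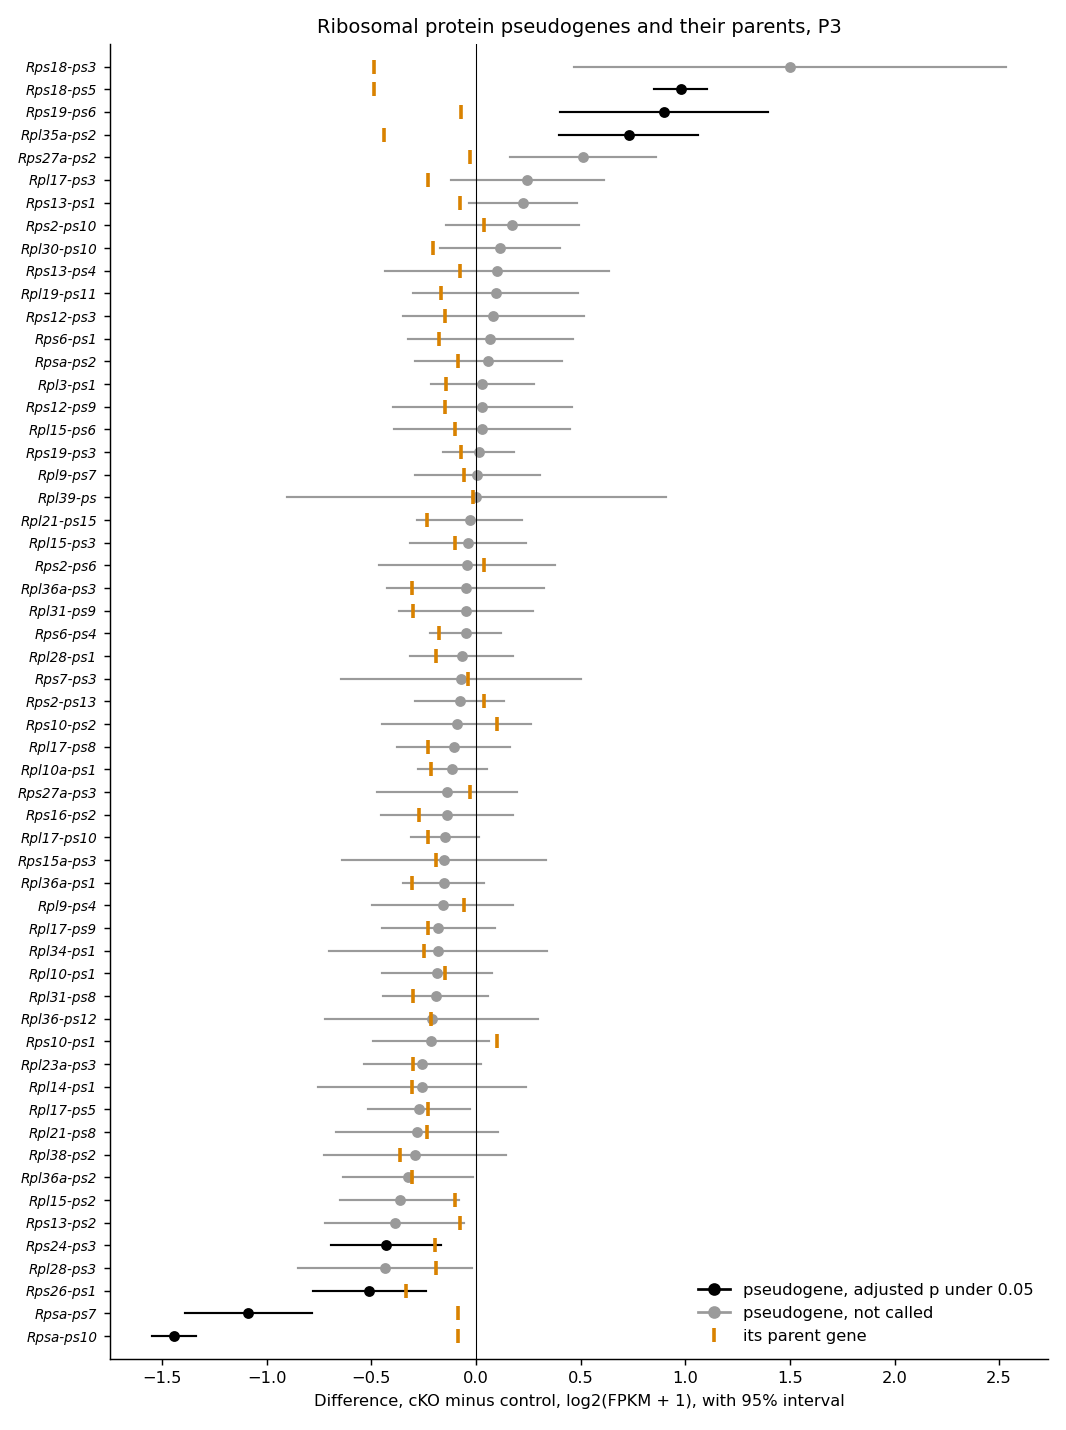
Difference of each of the 57 pseudogenes between cKO and control (points, with 95% intervals; black where the limma adjusted p was under 0.05) and of its parent gene (orange ticks), on the log2(FPKM + 1) scale, ordered by size. Most points lie within 0.5 of 0, while Rpsa-ps10 at -1.44 and Rps18-ps5 at 0.98 lie far from the ticks of their parents.

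The copies were unequal in level. Rpsa-ps10 had a mean of 143 FPKM and the least abundant member 1.01 FPKM, with a median of 3.65 FPKM over the 57, and 19 had a mean of at least 10 FPKM. Rpsa-ps10 alone held 17.6%, 17.6% and 15.7% of all reads counted for the 57 pseudogenes in the cKO libraries, against 36.4%, 35.0% and 36.9% in the control libraries. The 57 together took 0.0376%, 0.0397% and 0.0428% of counted reads in cKO and 0.0514%, 0.0547% and 0.0484% in control. Without Rpsa-ps10 these shares were 0.0310%, 0.0327% and 0.0361% in cKO and 0.0327%, 0.0356% and 0.0305% in control. The groups did not overlap with Rpsa-ps10 in the sum and overlapped without it.

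Rpsa-ps10 (ENSMUSG00000047676) measured 74.9, 79.0 and 75.9 FPKM in the cKO libraries, against 211, 216 and 202 FPKM in the control libraries. The groups were far apart, and each was narrow. The means were 76.6 ± 2.16 FPKM in cKO and 209.8 ± 7.21 FPKM in control (SD, n = 3 each), so cKO held 36.5% of the control level, a difference of -1.44 ± 0.05 (SE, limma adjusted p = 5.1e-06). The copy rested on 1955 to 9468 reads per library. Its parent Rpsa measured 439, 446 and 444 FPKM in cKO and 479.8, 474 and 458 FPKM in control, a difference of -0.09 ± 0.05 (SE, limma adjusted p = 0.22). All cKO values of Rpsa lay below the control values, but by a margin that did not pass the test. Reads of Rpsa-ps10 amounted to 4.76%, 4.95% and 4.77% of the reads of Rpsa in the cKO libraries and to 12.3%, 12.7% and 12.3% in the control libraries. An exact two-sided permutation test of these percentages gave p = 0.1, its smallest possible value, and leaving out any library kept the cKO percentage between 0.383 and 0.392 times that of control.

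The other Rpsa copies did not move alike. Rpsa-ps7 (ENSMUSG00000117438), whose frame holds a stop codon, measured 5.54, 6.98 and 5.86 FPKM in cKO and 11.9, 13.4 and 17.5 FPKM in control. Its highest cKO value lay well below its lowest control value, and the difference was -1.09 ± 0.13 (SE, limma adjusted p = 0.0020). Its reads were 0.386 ± 0.0452% of those of Rpsa in cKO and 0.850 ± 0.195% in control (SD, n = 3 each; exact permutation p = 0.1). Rpsa-ps2 measured 3.03, 4.598 and 3.55 FPKM in cKO and 3.24, 4.51 and 2.90 FPKM in control, and the groups overlapped fully, with a difference of 0.06 ± 0.15 (SE). Below the threshold of 1 FPKM, Rpsa-ps9 had means of 0.605 FPKM in cKO and 1.13 FPKM in control with no overlap, and Rpsa-ps12 had 0.646 FPKM in cKO and 1.03 FPKM in control with overlapping values. Neither was tested.

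When the reads of Rpsa and of its 9 listed copies were summed and set on the length of Rpsa, the family measured 468 ± 4.43 FPKM in cKO and 535 ± 12.4 FPKM in control (SD, n = 3 each), a difference of -0.19 ± 0.05 (SE, limma adjusted p = 0.026). Rpsa by itself was not called, so the copies moved this family past the threshold. Over the 33 families summed in the same way, 13 were called lower and 0 higher (limma on the table with family sums, where 5.84% of rows were called lower). In 32 of the 33 the call was that of the parent alone, and in 28 the sum moved the difference by less than 0.02.

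Rps18 encodes a protein of the small ribosomal subunit, and the parent was called lower while one of its copies, Rps18-ps5, was called higher. Rps18-ps5 (ENSMUSG00000113061) measured 35.8, 38.7 and 38.7 FPKM in cKO, against 18.01, 19.9 and 18.1 FPKM in control. All cKO values were close together and above all control values. The means were 37.7 ± 1.68 FPKM in cKO and 18.7 ± 1.08 FPKM in control (SD, n = 3 each), 202% of control, with a difference of 0.98 ± 0.05 (SE, limma adjusted p = 0.00017). Rps18 itself measured 112, 105 and 105 FPKM in cKO and 139, 152 and 162 FPKM in control, a fall by 0.49 ± 0.06 (SE, limma adjusted p = 0.0027). Reads of Rps18-ps5 were 7.89%, 9.13% and 9.12% of the reads of Rps18 in cKO and 3.21%, 3.24% and 2.76% in control, 2.84 times as high in cKO (exact permutation p = 0.1).

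Rps18-ps3 (ENSMUSG00000057657), which shares 109 stretches of 150 bases with Rps18-ps5, measured 22.2, 18.5 and 28.8 FPKM in cKO and 14.5, 9.17 and 2.77 FPKM in control. No value overlapped, but the control libraries ranged widely, and the difference of 1.50 ± 0.45 (SE) missed the threshold with a limma adjusted p of 0.052. Without control replicate 1 the adjusted p was 0.022, and without control replicate 3, the lowest library, it was 0.038 with a difference of 0.92. It passed the threshold in 5 of 16 alternative fits. With the reads of its copies added, the Rps18 family fell by 0.37 ± 0.06 (SE, limma adjusted p = 0.0050), a difference 0.11 closer to 0 than that of Rps18 alone.

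**Figure D2:**
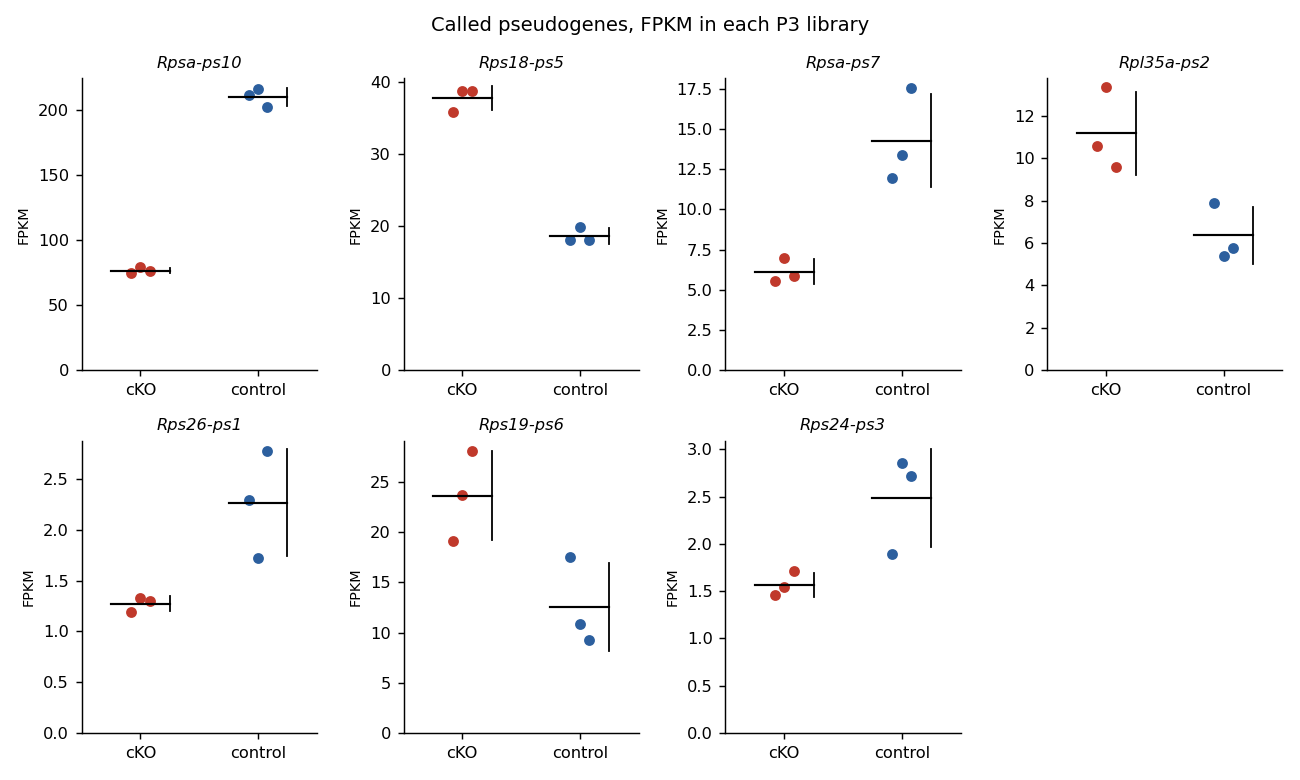
FPKM of the 7 called pseudogenes in each P3 library, cKO left and control right (points are libraries, horizontal bars means, vertical bars the SD over 3 libraries; axes start at 0 and differ between panels). No panel has overlapping groups. Rpsa-ps10, Rpsa-ps7, Rps26-ps1 and Rps24-ps3 are lower in cKO, and Rps18-ps5, Rpl35a-ps2 and Rps19-ps6 higher.

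Rpl35a-ps2 (ENSMUSG00000081214), a copy of a large subunit gene, was called higher, while its parent fell. The copy measured 10.6, 13.3 and 9.59 FPKM in cKO and 7.89, 5.40 and 5.78 FPKM in control. The lowest cKO library was above the highest control library, and the difference was 0.73 ± 0.14 (SE, limma adjusted p = 0.013). Rpl35a averaged 41.5 ± 1.45 FPKM in cKO and 56.8 ± 5.55 FPKM in control (SD, n = 3 each), a fall by 0.44 ± 0.07 (SE, limma adjusted p = 0.0054). The copy's reads were 2.53 ± 0.350% of those of Rpl35a in cKO and 1.07 ± 0.309% in control (exact permutation p = 0.1). A single substitution separates this copy from Rpl35a. Each of its 184 stretches of 150 bases is also found exactly in Rpl35a-ps3, Rpl35a-ps4, Rpl35a-ps6 and Gm10243, so no read of this length inside it is unique to it, and 58 to 179 reads per library were counted.

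Rps19-ps6 (ENSMUSG00000096942) measured 19.2, 23.7 and 28.1 FPKM in cKO and 17.5, 10.8 and 9.23 FPKM in control. Control replicate 1 came close to the lowest cKO library without reaching it. The difference was 0.90 ± 0.22 (SE, limma adjusted p = 0.026), and the call was lost without cKO replicate 2 (adjusted p = 0.075), cKO replicate 3 (0.074), control replicate 2 (0.085) or control replicate 3 (0.068). Rps19, a small subunit gene mutated in Diamond-Blackfan anaemia in humans, averaged 56.2 ± 6.36 FPKM in cKO and 59.1 ± 7.37 FPKM in control (SD, n = 3 each), a difference of -0.07 ± 0.11 (SE, limma adjusted p = 0.67). The pseudogene lies inside Tecpr2 on the same strand, and Tecpr2 averaged 3.36 ± 0.200 FPKM in cKO and 2.91 ± 0.335 FPKM in control, with an adjusted p of 0.18 from limma. Rps19-ps3, the other Rps19 copy above the threshold, averaged 2.63 ± 0.261 FPKM in cKO and 2.59 ± 0.149 FPKM in control, a difference of 0.01 ± 0.07 (SE).

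The remaining called copies were near the lower end of the set. Rps26-ps1 (ENSMUSG00000059775) measured 1.19, 1.33 and 1.30 FPKM in cKO and 2.30, 1.72 and 2.78 FPKM in control, on 17 to 66 reads per library. The cKO libraries were all lower, with a difference of -0.51 ± 0.12 (SE, limma adjusted p = 0.022). Of the fits without a library, that without control replicate 2 kept the call (adjusted p = 0.011), and the adjusted p was 0.053 without cKO replicate 1, 0.059 without cKO replicate 2, 0.053 without cKO replicate 3, 0.058 without control replicate 1 and 0.059 without control replicate 3. Its parent Rps26 measured 431, 338 and 319 FPKM in cKO and 424, 401 and 549 FPKM in control, with overlap and a difference of -0.33 ± 0.14 (SE, limma adjusted p = 0.13). The copy lies inside Wwp2 on the opposite strand, and Wwp2, a ubiquitin ligase gene, averaged 7.66 ± 0.172 FPKM in cKO and 7.04 ± 0.275 FPKM in control (limma adjusted p = 0.14).

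Rps24-ps3 (ENSMUSG00000081049), on X, measured 1.46, 1.54 and 1.71 FPKM in cKO and 1.89, 2.85 and 2.72 FPKM in control, on 20 to 58 reads per library. Again all cKO values were the lower ones, with a difference of -0.43 ± 0.11 (SE, limma adjusted p = 0.035). The call held without control replicate 1 (adjusted p = 0.0087) and was lost without cKO replicate 1 (0.080), cKO replicate 2 (0.096), cKO replicate 3 (0.061), control replicate 2 (0.11) and control replicate 3 (0.11). Here the parent was called lower too: Rps24 averaged 117 ± 3.16 FPKM in cKO and 134 ± 5.92 FPKM in control (SD, n = 3 each), a difference of -0.20 ± 0.05 (SE, limma adjusted p = 0.028). That call held in 8 of 16 alternative fits. It was lost under TPM scaling (adjusted p = 0.055), quantile normalization (0.11) and no filter on low values (0.080), and in 5 of the 6 fits without a library (0.060 to 0.090), all but the one without control replicate 1. Of the 7 pseudogenes on X, Rps24-ps3 was the one called, and the other 6 differed by between -0.11 and 0.11.

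The most abundant copies apart from Rpsa-ps10 and Rps18-ps5 were not called. Rpl31-ps8 measured 76.1, 67.4 and 78.2 FPKM in cKO and 90.3, 94.7 and 70.5 FPKM in control, a difference of -0.19 ± 0.11 (SE, limma adjusted p = 0.24), and without control replicate 3, whose value lay among those of cKO, its adjusted p was 0.034 with a difference of -0.32. Rpl17-ps10 averaged 51.6 ± 2.43 FPKM in cKO and 57.4 ± 5.48 FPKM in control, and Rpl10a-ps1 averaged 43.2 ± 4.35 FPKM in cKO and 46.7 ± 1.95 FPKM in control. Rps16-ps2 averaged 36.7 ± 5.38 FPKM in cKO and 40.6 ± 6.87 FPKM in control, and Rpl15-ps3 averaged 30.0 ± 3.38 FPKM in cKO and 30.9 ± 5.23 FPKM in control (SD, n = 3 each). The values of these 5 copies overlapped between groups, and Rpl31-ps8, Rpl10a-ps1, Rps16-ps2 and Rpl15-ps3 are identical to the parent over all aligned bases. Rps27a-ps2 was the exception among abundant copies. It measured 32.0, 39.0 and 40.2 FPKM in cKO and 19.8, 30.4 and 27.8 FPKM in control, with no overlap and a difference of 0.51 ± 0.15 (SE, limma adjusted p = 0.051). It passed the threshold in 7 of 16 alternative fits, among them those without cKO replicate 1 (adjusted p = 0.043) and without control replicate 2 (0.047), and its adjusted p ran between 0.0056 with voom and 0.16 with no filter on low values. Rps27a, its parent, which encodes ubiquitin fused to a small subunit protein, differed by -0.03 ± 0.06 (SE).

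Calls among the parent genes ran in one direction. Of 33 parents 12 were called lower and 0 higher, with a median difference of -0.19, and the differences ran between -0.49 and 0.10. The 12 were Rps18, Rpl14, Rpl35a, Rpl21, Rpl23a, Rps24, Rpl17, Rps6, Rpl10a, Rps16, Rpl31 and Rpl34. Over the 83 cytosolic ribosomal protein genes tested, 18 were called lower and 0 higher, with a median of -0.17. Of all rows tested, 5.74% were called lower and 13.4% higher, with a median difference of 0.03. Reads of the 33 parents made up 1.40%, 1.40% and 1.39% of counted reads in cKO and 1.51%, 1.61% and 1.59% in control, so the parents carried far more reads than their copies in every library. The number of parents called lower was 2 under quantile normalization and 7 under TPM scaling, and it was 3 without cKO replicate 2, 4 without cKO replicate 3, 4 without control replicate 2 and 5 without control replicate 3.

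Of the 20 copies of parents that were called lower, 2 were called higher and 1 lower, with a median difference of -0.13. That is 15% called, against 19.1% of all rows tested (13.4% higher and 5.74% lower). Set against the parent, 33 of the 57 pairs had a negative difference in both, and in 23 the signs were opposite. Reads of a pseudogene were a median of 0.569% of those of the parent over the 57 pairs, taking for each pair the median of the 6 libraries. This percentage was under 1% in 34 pairs and over 5% in 8. The highest was that of Rps10-ps2, with 27.2 ± 4.38% in cKO and 32.6 ± 7.58% in control (SD, n = 3 each). The row of Rps10 itself had the lowest level of any parent, 2.75 ± 0.153 FPKM in cKO and 2.50 ± 0.139 FPKM in control. It held 174 to 319 reads per library. All 243 exact stretches that Rps10-ps2 shares with Rps10 are also found in the annotated gene RPS10-NUDT3. Whether reads of Rps10 mRNA were counted for RPS10-NUDT3 was not tested. The percentages of Rps10-ps2 and Rps10-ps1 both rest on this low Rps10 row. The gene length given for the parents was a median of 4.04 times that of the copy, although the aligned mRNA is nearly the same, so FPKM levels of copy and parent are on different lengths and read percentages were compared in their place. The percentages of cKO lay above all those of control in 7 pairs, below them in 6 and overlapped in 44. For comparison, 40.5% of all rows tested had FPKM values without overlap. No such share was taken for read percentages of other genes. The 13 pairs without overlap include the 7 called pseudogenes, Rps18-ps3 and Rps27a-ps2, and besides them Rps13-ps1, Rpl3-ps1, Rps13-ps2 and Rps10-ps1.

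**Figure D3:**
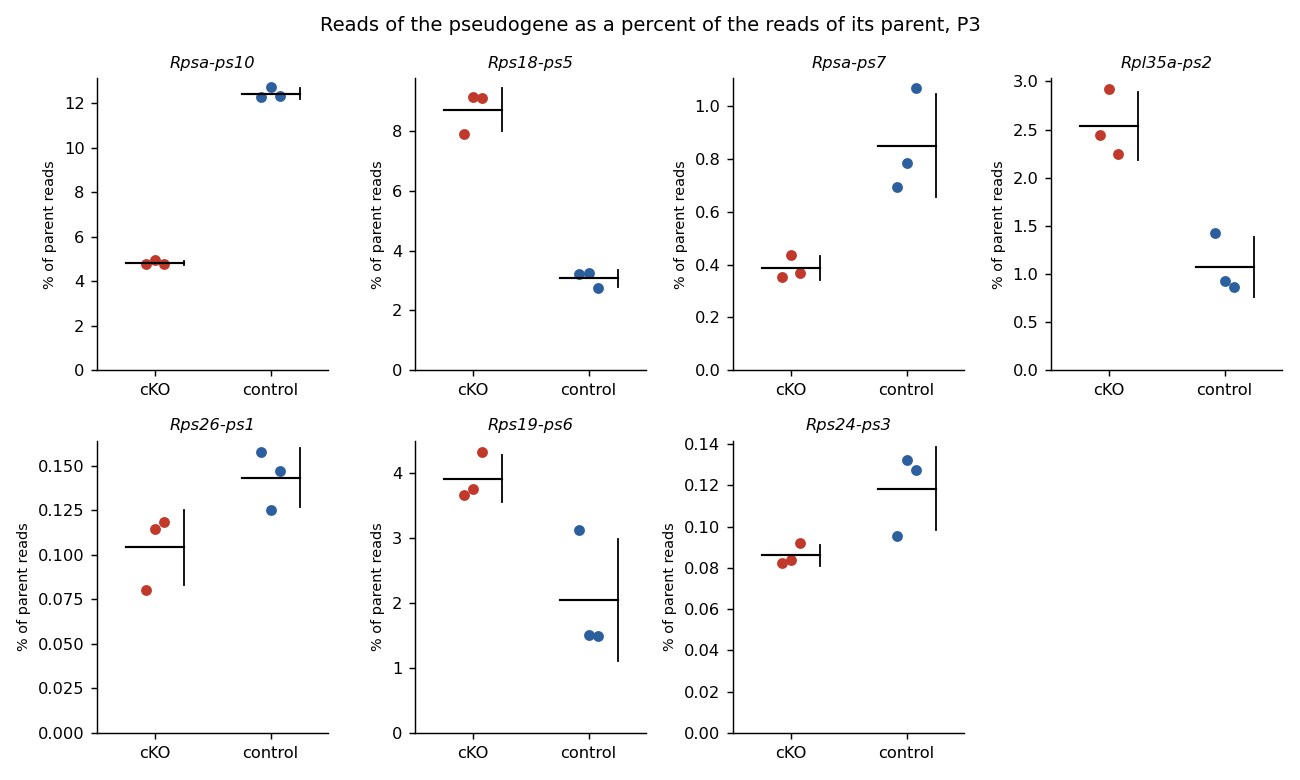
Reads counted for each called pseudogene as a percent of the reads counted for its parent gene, in each P3 library, cKO left and control right (points are libraries, horizontal bars means, vertical bars the SD over 3 libraries; axes start at 0). Rps18-ps5 reached 8.71% in cKO and 3.07% in control, and Rpsa-ps10 4.83% in cKO and 12.4% in control.

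Called copies differed among themselves in how much sequence they share with other genes. None of the 11 pseudogenes identical to the parent was called, while 7 of the 46 with a substitution were, and the identical ones had a median difference of -0.14 against -0.06 for the others. The difference between identical and substituted copies was not tested. Of the 57, 12.3% were called, against 19.1% of all 13538 rows tested. The share of exact 150-base stretches ran between 21.6% in Rpsa-ps7 and 100% in Rpl35a-ps2 among the called ones. Small subunit copies held 6 of the 7 calls, 2 of 26 higher and 4 of 26 lower, and large subunit copies 1 of 31, but the difference between the classes was not tested. By level, 4 of the 19 copies with a mean of at least 10 FPKM were called and 3 of the 38 below it, a split that was not tested either. Without the copies of Rpsa and Rps18, 4 of 52 were called, and the difference of each of these 52 lay between -0.51 and 0.90.

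**Figure D4:**
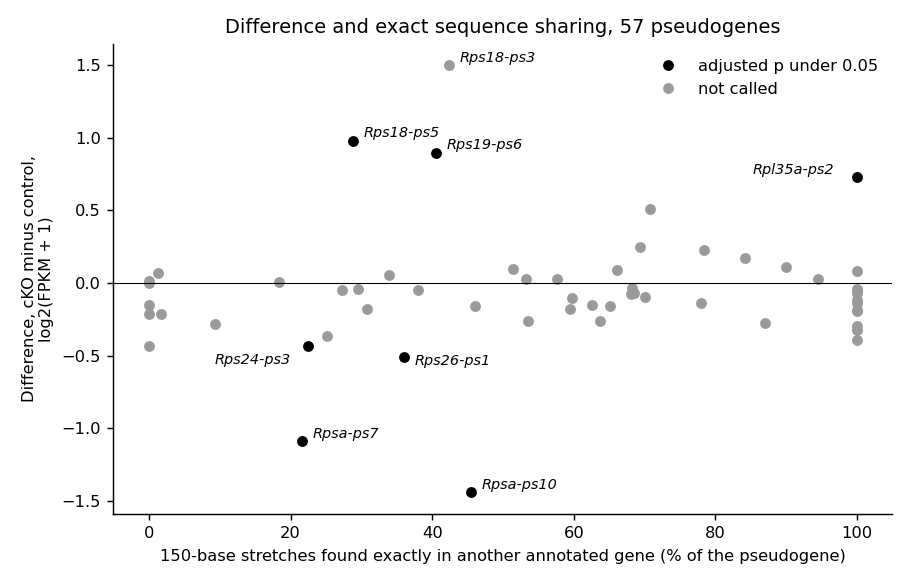
Difference between cKO and control of each of the 57 pseudogenes on the log2(FPKM + 1) scale (vertical) against the percent of its 150-base stretches that occur exactly in another annotated transcript (horizontal; black where called). Called copies lie between 21.6% and 100%, and the 11 copies identical to their parent, all at 100%, lie between -0.39 and 0.08.

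In position, 23 of the 57 pseudogenes lay inside another gene of the table, 17 on the opposite strand and 6 on the same strand, and 20 of these genes were protein coding. Whether strand was used in counting is not given in the sources used here, so reads of the pseudogene and of the gene around it cannot be told apart by strand. Of the 18 surrounding genes tested, 4 were called higher (Rimklb around Rps27a-ps3, Aebp2 around Rpl38-ps2, Sumf1 around Rpl36-ps12 and Mbp around Rpl21-ps8) and 0 lower, and none of the pseudogenes in these 4 was called. Over all rows tested, 13.4% were called higher and 5.74% lower. Pseudogenes inside genes had 2 calls of 23 and those outside 5 of 34. Rpsa-ps10, Rpsa-ps7, Rps18-ps5, Rpl35a-ps2 and Rps24-ps3 overlapped no other gene of the table.

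The authors' deposited table, which gives a comparison with its own adjusted p-values, called 23.1% of 16021 genes. That count leaves out genes whose adjusted p-value was missing or at its upper limit. Of the 57 pseudogenes, 7 were at that limit and were left out, although a log2 fold change is given for them. Whether the authors tested them is not stated. Among the 57 pseudogenes the authors' deposited table called 4 higher, namely Rps18-ps5, Rps19-ps6, Rpl35a-ps2 and Rps27a-ps2, and 2 lower, Rpsa-ps10 and Rpsa-ps7. The log2 fold change in the authors' deposited table was -1.51 for Rpsa-ps10, -1.28 for Rpsa-ps7 and 0.96 for Rps18-ps5. For Rps26-ps1 and Rps24-ps3 the authors' deposited table gave adjusted p-values of 0.13 and 0.24, and it called 19 of the 33 parents lower, Rpsa among them with a log2 fold change of -0.14.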

How the data were processed

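Poly(A) RNA was made into dUTP-marked libraries and sequenced from both ends, per the labels' protocols. Tools named in the submitters' processing notes are cutadapt 1.9, HISAT2 2.2.1, StringTie 2.1.6, DESeq2 and edgeR, with the build mm10 and no roles. How reads that match several copies were counted, and whether strand was used, is not given in the sources used here. The authors deposited one P3 table with FPKM per library and a gene length in bases. It also holds the authors' own comparison, with a mean signal, a log2 fold change and its error, a test score and p-values, per the file headers. Columns named WT were read as control and the remaining prefix as cKO, as no further P3 group is labelled. After multiplication by gene length, 100% of FPKM values were whole reads within 0.001 reads, which gave the depths. Precision is set by these counts, and 3 reads in a gene of 1 kb correspond to between 0.0566 and 0.103 FPKM, counting error only.

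Rows with a mean of at least 1 FPKM were tested with limma 3.58.1 (R 4.3.3, intensity trend, no covariates) on log2(FPKM + 1), which understates changes of low genes, with Benjamini-Hochberg adjustment over all 13538 rows. The fit was tested on simulated data. Read percentages were compared with exact two-sided permutation tests (scipy 1.17.1). Family rows sum the reads of a parent and all its -ps rows. The chi-square per degree of freedom between libraries of a group was 4.21 to 8.99, so none was a duplicate. Sequences came from GENCODE M21 transcripts by gene ID and were aligned with Biopython 1.88. The start and end of 0 of the 57 pseudogenes matched that annotation, so table positions served only for overlaps within the table. The members, the lists and the rule for named genes (called members, the 8 most abundant, copies of the same parents, rows nearest the threshold, their parents, genes around called members and Znhit3) were chosen with earlier results of these data known. Rpl28-ps3, Rpl39-ps, Rps10-ps1, Rps10-ps2, Rps13-ps1, Rps13-ps2, Rps15a-ps3, Rpl3-ps1 and Rpl36a-ps3 were named after their values were seen. So were Rimklb, Aebp2, Sumf1 and Mbp, which were named because they were called, and Rps27a-ps3, Rpl38-ps2, Rpl36-ps12 and Rpl21-ps8 inside them. Alternatives were another pseudocount, other filters, TPM, upper quartile and quantile scaling, removal of a length trend, limma without the trend, voom on recovered reads, a replicate block and leaving out each library.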

Additional observations from a re-analysis of the deposited data

How the results depend on the processing

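Rpsa-ps10, Rps18-ps5, Rpsa-ps7 and Znhit3 kept their direction and their call under all 16 alternatives, 6 of which leave out a library, and Rpl35a-ps2 lost its call in 1 (no filter on low values, adjusted p = 0.062). Rps26-ps1 was called in 8 of 15, Rps24-ps3 in 8 of 15 and Rps19-ps6 in 10 of 16. No named pseudogene or parent that was called changed sign. The 3 pseudogenes called higher became 1 with no filter on low values and 5 with a mean of at least 5 FPKM, TPM scaling or voom, and the 4 called lower became 2 with no filter, a mean of at least 5 FPKM or voom. At a mean of at least 5 FPKM, Rps26-ps1 and Rps24-ps3 were removed by the filter and not tested, so their calls could not be kept there. Leaving out one library gave 2 to 4 higher and 2 to 4 lower (2 without cKO replicate 2). The 12 parents called lower became 4 with no filter, 7 with TPM scaling and 2 with quantile normalization, and 3 to 11 without one library (3 without cKO replicate 2, 4 without cKO replicate 3 or control replicate 2, 5 without control replicate 3). The 13 families became 4, 7 and 2 under these settings, and 3 to 12 without one library (3, 4, 4 and 7 without those libraries). Of surrounding genes 4 were called, against 1 with no filter, 1 with quantile normalization, 2 with the length trend removed, and 1 to 4 without one library. The count of families called at a mean of at least 5 FPKM is not reported here. The cause of these changes was not tested.

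Replicate numbers did not pair the libraries: deviations of same-numbered libraries correlated at -0.02, 0.04 and -0.10. With the replicate number as a block, 7 pseudogenes were called lower, 8 families lower and 2 surrounding genes. The calls lost under the block, such as Rps19-ps6 (adjusted p = 0.067), are no measure of effect size here. Rps27a-ps2 was called under the block (adjusted p = 0.014) and in 7 of 16 alternatives in all, and the parent gene Rps24 kept its call in 8 of 16. Low counts limit copies near 1 FPKM: 11 of the 57 had under 20 reads in some library, and 20 had at least 100 in each.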
